A study of Mus musculus with 12 samples.

Results

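The nuclear genes for the subunits of oxidative phosphorylation were followed one by one in 2 mouse RNA-seq experiments. Members were all protein-coding nuclear genes whose symbol begins with Ndufa, Ndufb, Ndufc, Ndufs or Ndufv (the Ndufaf assembly factors left out), Uqcr, Cox4i, Cox5, Cox6a, Cox6b, Cox6c, Cox7a, Cox7b, Cox7c, Cox8 or Atp5, together with Cyc1. They numbered 83 gene identifiers (82 symbols, since Atp5o is listed under 2 identifiers) among the 55487 genes counted. Of these, 36 belong to complex I, 9 to complex III, 20 to complex IV and 18 to ATP synthase (complex V). Ndufa4 and its paralog Ndufa4l2 were placed with complex IV, where the Ndufa4 protein resides despite its name.

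Both experiments used C57BL/6 mice labelled as 8 weeks old, with cells taken from the limbs. In the first, bone marrow-derived macrophages (BMMs) came from ovariectomized (OVX) mice, a model of bone loss after oestrogen withdrawal, or from sham-operated mice, with 3 libraries each. In the second, cultures labelled as mesenchymal stem cells (MSCs) were left as controls (MSC), cocultured with the mouse macrophage line RAW264.7 (MSC+RAW) or cocultured with RAW264.7 cells stimulated with lipopolysaccharide, LPS (MSC+RAW-LPS), with 2 libraries each. Whether inserts kept the cells apart in the sequenced cocultures is not given in the sources used here. The labels do not say whether libraries of a group came from separate animals or cultures, so p-values measure only the spread between these libraries. The count columns of both cocultures could not be matched one to one to sample titles, so their libraries are numbered here in column order.

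Respiratory complexes I, III and IV pass electrons from NADH to oxygen and pump protons across the inner mitochondrial membrane, and ATP synthase uses that gradient to make ATP. Most of their subunits are encoded in the nucleus and imported, while mitochondrial DNA encodes some core subunits of complexes I, III and IV and a part of ATP synthase. Several complex IV subunits exist as pairs of isoforms from separate genes, of which one is common to most tissues and the other is used in muscle, lung or testis. In macrophages, LPS is known to shift metabolism from respiration towards glycolysis.

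Depth lay between 17012923 and 45367105 counts over the 12 libraries. Sham replicates 2 and 3 were nearly the same library by their counts: the variance between them was 2.58 times counting noise in weakly and 2.79 times in strongly expressed genes, whereas the other BMM pairs rose with expression to between 40.1 and 149.85 times. The MSC+RAW pair behaved alike (3.07 and 3.36 times, against 62.23 and 23.36 times for strongly expressed genes in the other pairs of the MSC experiment). Each near-identical pair was therefore summed and counted as 1 sample, which leaves n = 3 for OVX, n = 2 for sham, MSC and MSC+RAW-LPS, and n = 1 with no error for MSC+RAW. Sham 1 stood apart from the other sham libraries, with 13 of 79 members (16.5%) more than 2-fold away from their mean, against 4.95% of all genes. All 10 macrophage markers were detected in every library, with summed levels of 40091 to 58372 CPM in BMMs and 14295 to 33428 CPM in the cultures labelled as MSCs. The mesenchymal markers summed to between 2637 and 4030 CPM in the MSC cultures, below the 7437 to 8202 CPM in BMMs. Most of each sum was Col1a1, Col1a2 and Col3a1, and by gene the list was mixed. Thy1 was at 0.24 to 2.16 CPM in the MSC cultures and at 52.6 to 69.2 CPM in BMMs. Eng (61.6 to 131 against 18.4 to 30 CPM) and Pdgfrb (139 to 167 against 91 to 114 CPM) were higher in the MSC cultures. The cultures are therefore called by their labels only.

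Levels are given as CPM, counts scaled to a common TMM-normalised library size. Of the 83 members, 79 passed the filter on low counts in each experiment. The 4 others were the isoforms Cox7b2, Cox8b and Cox8c and the second Atp5o identifier, which held no count. Cox7b2, the testis partner of Cox7b, had no count in any library either, which allows up to 3 counts per library by counting error alone. Cox8b, the muscle partner of Cox8a, reached 0.194 CPM in sham 3, 0.127 in sham 2 and 0.18 in MSC+RAW-LPS 1 and was at 0 elsewhere. Cox8c, the testis partner, was seen only in OVX 3, at 0.0592 CPM. Tested members averaged from 1.42 to 1059 CPM in BMMs, with 74 of them at 10 CPM or more, and from 1.69 to 818 CPM in the MSC experiment, with 72 at 10 CPM or more. Per length, Cox6a1 averaged 1108 in BMMs as RPKM, the CPM divided by the kilobases of all annotated exons of a gene. This length can exceed that of the expressed transcript, so the order may depend partly on annotation. Cox8a averaged 964 and Cox6b1 766, above the complex I core subunit Ndufs1 at 6.8 and above Cox5a at 19.4. The order was alike in the MSC experiment (951, 552, 436, 5.79 and 8.93 RPKM), and no test was made of it.

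To see whether ovariectomy went with a change of these genes in macrophages, OVX was set against sham. Of 79 tested members, 65 had a lower mean in OVX, with a median log2 fold change of -0.36 against -0.01 over all 16768 genes tested. Only 4 members passed an adjusted p of 0.05 (edgeR quasi-likelihood test, Benjamini-Hochberg over all genes): Ndufa9, Cyc1, Cox7a1 and Ndufa4l2, all lower. That is 5.06% of the members beside 5.83% of all genes, so the share that fell was no larger than in the background. No member rose, beside 7.26% of all genes, and no member was higher at an unadjusted p under 0.05, where 23 were lower, beside 15.7% and 14.2% of all genes. DESeq2 gave 12 lower members and none higher, beside 9.35% and 11.0% of all genes. Cox7a1 and Ndufa4l2 also passed a fold of 2 (2.53% of members, beside 3.08% of all genes lower and 5.39% higher by that rule). All OVX libraries lay below all sham libraries for 36 members (45.6%) and above them for none, beside 21.0% and 21.8% of all genes.

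Complex I had the median nearest to that of all genes, -0.30 over 36 members, followed by ATP synthase with -0.34 over 17, complex IV with -0.37 over 17 and complex III with -0.46 over 9. The summed level of all members was 15813, 16698 and 15885 CPM in the OVX libraries and 20289, 19545 and 19580 CPM in the sham libraries, so the groups did not overlap. On this scale the sum over all genes tested was also lower in OVX, at 913824 to 933685 CPM against 1075010 to 1103030 CPM in sham, and as a share of that sum the members took 1.73% to 1.79% in OVX and 1.82% to 1.84% in sham. In these bulk samples, a lower share of a cell type and less RNA per cell cannot be told apart. The macrophage markers, too, summed to less in OVX (40091 to 44642 CPM) than in sham (53909 to 58372 CPM), with 4 of 10 fallen and none risen. Most of each sum was Lyz2 (36082 to 40429 and 48313 to 51536 CPM), which did not pass (edgeR adjusted p = 0.113). Ptprc and Cd68 had positive log2 fold changes (0.63 and 0.06) without passing. Osteoclast markers summed to 336 to 345 against 648 to 783 CPM, with 3 of 6 fallen (Acp5, Mmp9 and Ocstamp) and 1 risen (Atp6v0d2). Neutrophil markers were higher in OVX, at 1158 to 1282 against 769 to 901 CPM, with 1 of 6 risen (S100a9) and none fallen. Nearly all of that sum was S100a8 and S100a9, and Mpo and Camp had negative log2 fold changes (-0.98 and -0.25) without passing. The part of these cells in the subunit levels was not tested.

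**Figure D1:**
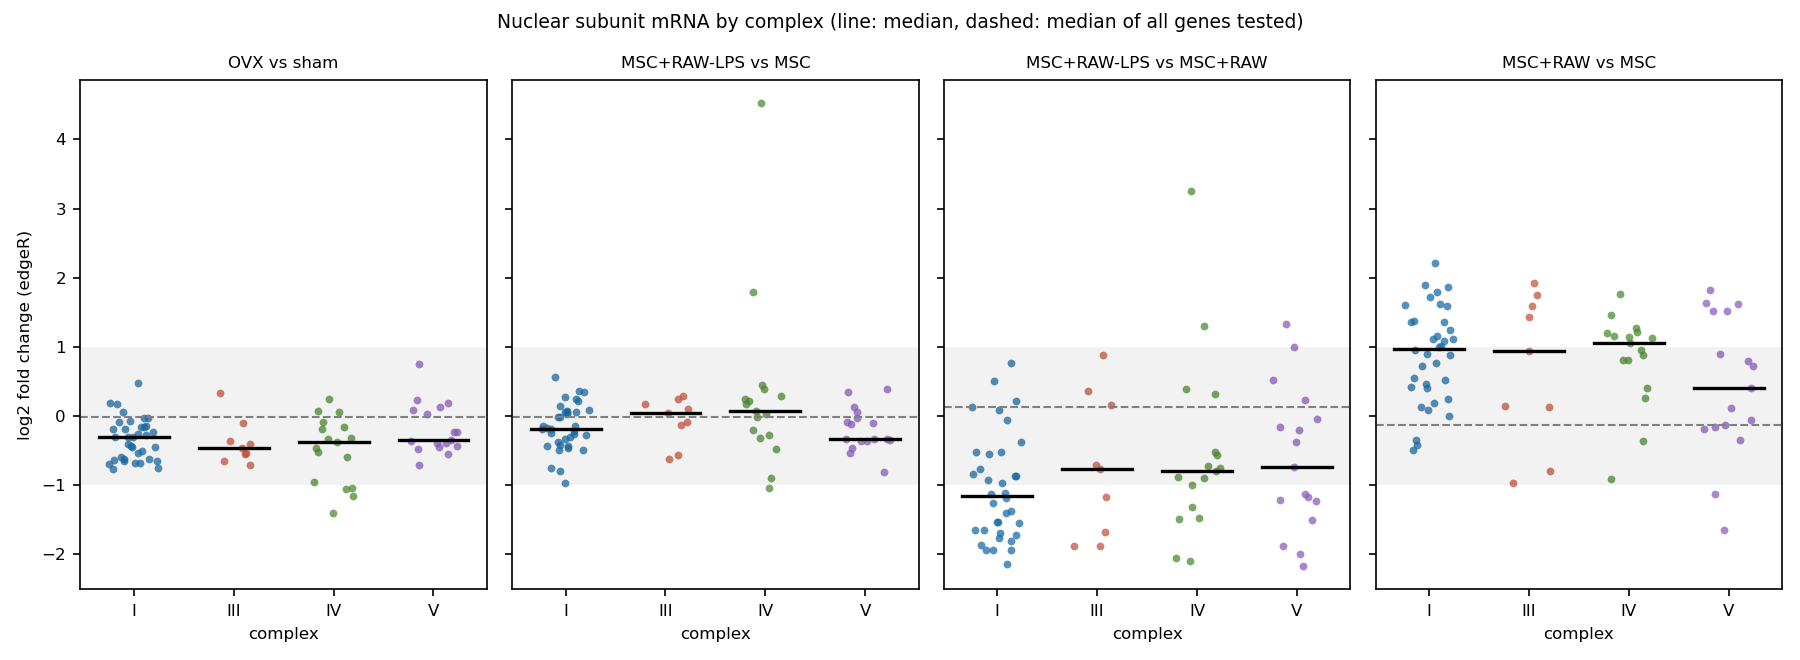
Log2 fold change of each of the 79 tested members (points) in the 4 comparisons, grouped by complex, with the median of each complex and of all genes tested. Most points lie below 0 for OVX against sham (65 of 79) and for the LPS coculture against the untreated one (63 of 79), and most lie above 0 for MSC+RAW against MSC (65 of 79).

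Among complex I subunits, only Ndufa9, an accessory subunit next to the quinone site, fell. It stood at 59.2, 70.6 and 66.8 CPM in OVX and at 99.6, 106 and 111 CPM in sham, with no overlap (log2 fold change -0.68 ± 0.18 SE, edgeR adjusted p = 0.0401). Ndufa9 is described here because it passed the test, not by the naming rule. Ndufs7, which carries the last iron-sulphur cluster before quinone, had 55.4, 77.5 and 74.2 CPM in OVX against 96, 136 and 137 in sham. Its OVX libraries all lay lower, yet it missed the threshold (-0.76 ± 0.23, edgeR adjusted p = 0.0632). The core subunit Ndufv1, which oxidises NADH, was lower without overlap and without passing (62.8 ± 7.28 against 84.6 ± 8.06 CPM, SD, n = 3 and 2, edgeR adjusted p = 0.151). Ndufs1, the largest core subunit, ran the other way at 77.9, 64.5 and 58.7 CPM in OVX against 62.6, 34.4 and 31.7 in sham, with overlapping groups (0.48 ± 0.28, edgeR adjusted p = 0.294).

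In complex III, Cyc1, the cytochrome c1 that hands electrons to cytochrome c, fell from 189, 205 and 198 CPM in sham to 113, 137 and 126 CPM in OVX. No library overlapped (-0.65 ± 0.17, edgeR adjusted p = 0.0457). Uqcrfs1, the Rieske iron-sulphur protein of the same complex, had 181, 157 and 132 CPM in OVX against 203, 125 and 132 in sham, with overlapping groups (-0.10, edgeR adjusted p = 0.825). Uqcr10, a small subunit, was lower without overlap (196 ± 29.9 against 283 ± 33.9 CPM, edgeR adjusted p = 0.113). Uqcrb, another small subunit, had the highest positive value of the complex (0.33 ± 0.29, edgeR adjusted p = 0.482), and here sham 1 at 227 CPM lay among the OVX libraries (270, 196 and 198) while sham 2 and 3 were at 119 and 125.

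In complex IV, Cox7a1, the heart and skeletal muscle partner of Cox7a2, fell from 10.8, 13.4 and 13.3 CPM in sham to 5.06, 6.95 and 5.69 CPM in OVX. The groups did not overlap (-1.04 ± 0.24, edgeR adjusted p = 0.0267). Cox7a2 itself, the common isoform, had 273, 301 and 241 CPM in OVX against 373, 240 and 245 CPM in sham, with overlap (-0.19, edgeR adjusted p = 0.615). Cox6a2, the muscle partner of Cox6a1, was at 0.701, 1.62 and 1.42 CPM in OVX and at 3.12, 3.23 and 3.63 CPM in sham. It had the lowest fold change of all members (-1.40 ± 0.39), did not overlap, and missed the threshold narrowly (edgeR adjusted p = 0.05004). Cox6a1 had 681 ± 79 CPM in OVX and 850 ± 106 CPM in sham (-0.33, edgeR adjusted p = 0.276). Markers of muscle cells summed to only 2.68 to 5.12 CPM in OVX and 3.88 to 6.52 CPM in sham, with 0 to 3 of the 6 markers at 0 per library, and none of the 4 tested passed the threshold.

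Ndufa4l2, the paralog of Ndufa4 that is known as a hypoxia-responsive inhibitor of respiration, was at 8.44, 12 and 7.14 CPM in OVX and at 22.9, 15.4 and 14.5 CPM in sham. All OVX libraries were lower (-1.05 ± 0.29, edgeR adjusted p = 0.0472). Ndufa4 had 320, 299 and 219 CPM in OVX against 350, 178 and 172 CPM in sham and overlapped (0.08 ± 0.30, edgeR adjusted p = 0.889). Cox4i1, the common isoform of the largest nuclear complex IV subunit, had 587, 731 and 724 CPM in OVX and 870, 1166 and 1156 CPM in sham, lower in every OVX library but not past the threshold (-0.59 ± 0.20, edgeR adjusted p = 0.094). Its lung isoform Cox4i2 ranged from 0.563 to 1.54 CPM in OVX and from 0.533 to 3.49 CPM in sham, so its -1.16 ± 0.60 rested on sham 1 (edgeR adjusted p = 0.232). Cox5a, a subunit on the matrix side, showed the widest spread of all members, from 122 CPM in sham 1 to 10.9 and 9.26 CPM in sham 2 and 3, with 51.7, 37.5 and 13.6 CPM in OVX (-0.96 ± 0.84, edgeR adjusted p = 0.485).

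Of the other complex IV pairs, Cox6b1 (461 ± 26 in OVX against 632 ± 31.6 CPM in sham), Cox8a (493 ± 27.7 against 699 ± 7.79 CPM) and Cox5b (190 ± 29.7 against 234 ± 6.24 CPM) were lower in every OVX library, with edgeR adjusted p = 0.107, 0.0792 and 0.309. Cox6b2, the testis partner of Cox6b1, overlapped at 3.02, 3.92 and 4.32 CPM in OVX against 4.01, 5.06 and 3.68 CPM in sham. Cox7b (447 ± 48.3 against 374 ± 99.6 CPM) and the supercomplex factor Cox7a2l (347 ± 33.6 against 444 ± 126 CPM) overlapped as well (edgeR adjusted p = 0.49 and 0.298).

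No ATP synthase subunit passed the test in OVX against sham. Atp5b, the catalytic beta subunit, had 957, 1001 and 872 CPM in OVX and 1382, 1088 and 1054 CPM in sham, lower without overlap (-0.39, edgeR adjusted p = 0.205). Atp5a1, the alpha subunit beside it, had 478, 447 and 352 against 689, 428 and 409 CPM and overlapped. Atp5d, the delta subunit of the central stalk, was lower in each OVX library (189 ± 36.6 against 306 ± 106 CPM, -0.71, edgeR adjusted p = 0.111). Atp5s, also called coupling factor B and not a lasting part of the enzyme, had the highest fold change of all members (7.22 ± 2.85 against 4.23 ± 0.865 CPM, 0.75 ± 0.38, edgeR adjusted p = 0.221).

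How many members passed depended on sham 1, on each OVX library and on the pooling of the near-identical pair. Without sham 1, which leaves a lone sham sample assumed to vary like the OVX libraries, 19 members were lower and 9 higher, beside 8.74% and 10.3% of all genes. With all 6 libraries counted as replicates 20 were lower and none higher, beside 12.5% and 13.8%. Without any one OVX library no member passed, where 1.94%, 0.771% and 3.03% of all genes were lower and 2.58%, 1.13% and 5.29% higher without OVX 1, 2 and 3. Without sham 2 only 2 members passed, both lower, beside 5.65% of all genes lower and 7.14% higher. The members' median kept its sign in each of these fits and lay between -0.40 and -0.30 with any 1 library left out. Of the 4 members that fell, Ndufa9 passed in 11, Cox7a1 in 10, Cyc1 in 9 and Ndufa4l2 in 8 of 15 other fits. Their log2 fold changes there ranged from -0.76 to -0.61, -1.18 to -0.66, -0.71 to -0.25 and -1.28 to -0.60, in the same order.

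**Figure D2:**
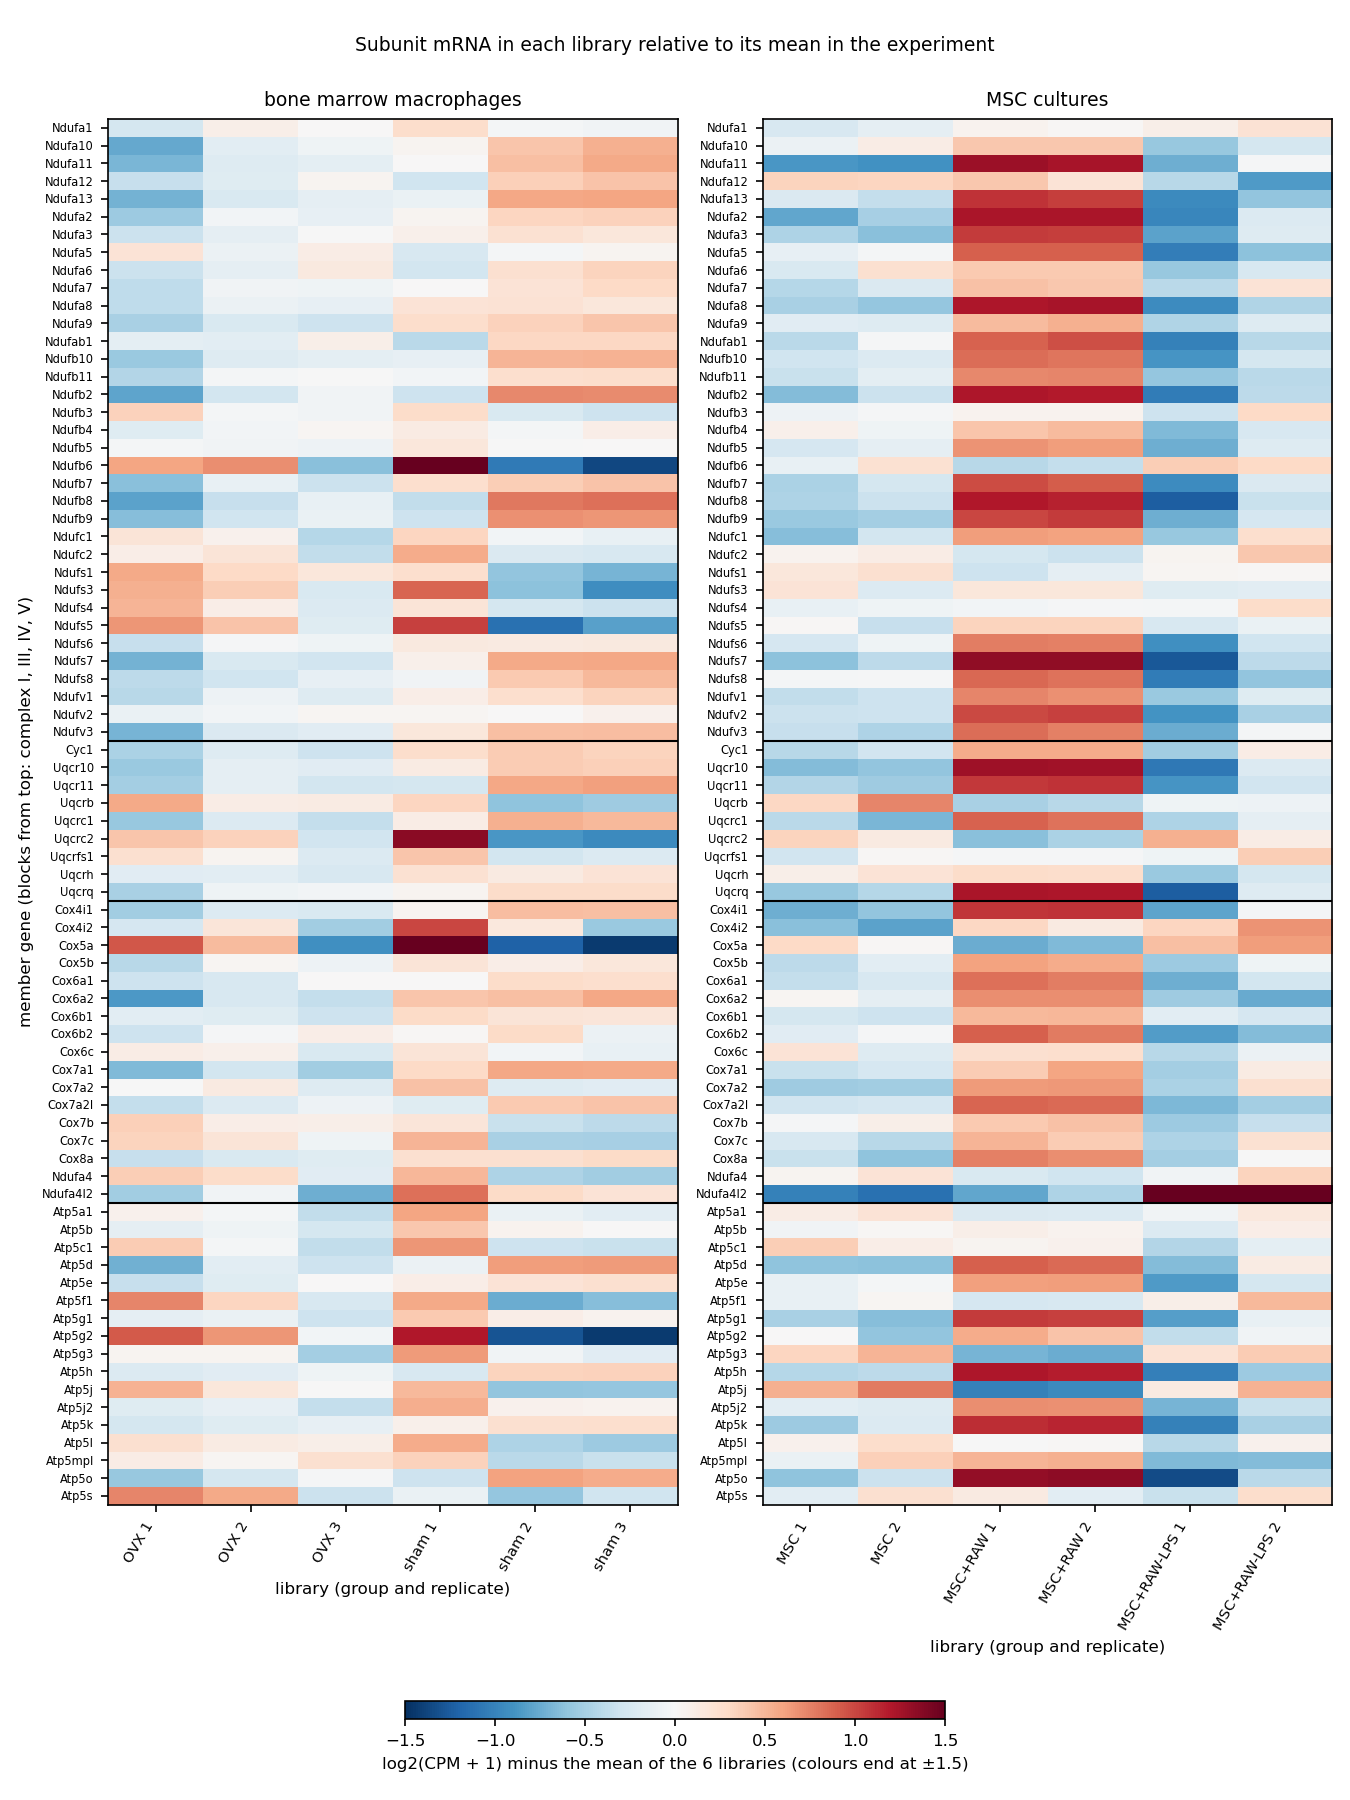
Level of the tested members named beside the rows in the 12 libraries, drawn as log2(CPM + 1) minus the mean of the 6 libraries of its experiment, in blocks from complex I at the top to ATP synthase at the bottom. The MSC+RAW columns stand apart from the 4 other columns of the MSC experiment, lying above all of them for 56 of all 79 tested members and below all of them for 11.

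The next question was what coculture with untreated RAW264.7 cells went with. MSC+RAW counts as 1 sample, so folds are given with no test. Compared with MSC, 35 of 79 members (44.3%) were at least 2-fold higher and 2 (2.53%) at least 2-fold lower, beside 13.7% and 24.0% of all 20499 genes. The members' median log2 fold change was 0.90, while that of all genes was -0.13. By complex the median was 0.98 for complex I, 0.94 for complex III, 1.06 for complex IV and 0.40 for ATP synthase, and 17, 4, 9 and 5 of their members were 2-fold higher. The summed level of the members was 21879 and 21691 CPM in MSC+RAW, 11206 and 11668 CPM in MSC, and 8735 and 11991 CPM in MSC+RAW-LPS. As a share of the sum over all genes tested, this was 1.97% and 1.98% in MSC+RAW, 1.27% and 1.33% in MSC, and 0.868% and 1.13% in MSC+RAW-LPS. Both MSC+RAW libraries lay above the 4 other libraries for 56 members (70.9%) and below them for 11 (13.9%), beside 26.2% and 31.4% of all genes. The summed macrophage markers were also highest in MSC+RAW, at 32924 to 33428 CPM, against 26178 to 26341 CPM in MSC and 14295 to 14709 CPM in MSC+RAW-LPS, but most of each sum was Lyz2 (26256 to 26651, 21602 to 21691 and 9151 to 10010 CPM). By gene, 5 of the 10 markers were higher and 5 lower in MSC+RAW than in MSC (median log2 fold change -0.03). In MSC+RAW-LPS, 4 fell and 1, Adgre1, rose against MSC. The part of these cells in the result was not tested.

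Of the 79 tested members, Ndufa11 had the largest difference. It is a membrane-arm subunit of complex I and had 173 and 168 CPM in MSC+RAW against 37.9 and 37 CPM in MSC and 42 and 69.7 CPM in MSC+RAW-LPS. That is a log2 fold change of 2.21 over MSC. Ndufa2, at the matrix arm, had 416 and 418 CPM against 103 and 126 CPM in MSC (1.89), and Ndufs7 had 273 and 272 against 69.8 and 82.1 CPM (1.87). Uqcr10 of complex III had 364 and 362 CPM against 95.6 and 99.1 CPM (1.93). Its neighbour Uqcrq, named here after its values were seen, reached 1553 and 1552 CPM against 449 and 493 CPM (1.75). Cox4i1 of complex IV had 1023 and 1028 CPM against 291 and 321 CPM (1.77). For all 6 of these genes the MSC+RAW libraries lay above the 4 others.

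The promoter of Ndufa11 is shown because this gene had the largest difference and because a motif of nuclear respiratory factor 1, a known regulator of these genes, was found in it. The 250 bases before the RefSeq start lie at chr17:56717512-56717761 on the plus strand of GRCm38.p6, and the capitals mark the match to this motif, which reads GCGCA and GCGC with any 1 base between them.
Ndufa11 promoter: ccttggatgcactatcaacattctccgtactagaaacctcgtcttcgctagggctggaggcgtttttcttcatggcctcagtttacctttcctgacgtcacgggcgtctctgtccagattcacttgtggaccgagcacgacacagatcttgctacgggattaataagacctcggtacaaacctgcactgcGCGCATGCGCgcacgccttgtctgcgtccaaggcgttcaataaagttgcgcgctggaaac
Promoters (250 bases before to 50 after the start) were found by symbol for 66 of the members. The motif, searched on both strands, was in 15 of them (22.7%) beside 5.19% of all 27025 genes. It was also in the window of Atp5g3, which was lower in MSC+RAW than in MSC (-1.12), and was not in that of Uqcr10 (1.93). The ETS-type motif CCGGAAG was in 14 (21.2%, beside 9.93%) and the YY1-type motif AAGATGGCG in 7 (10.6%, beside 1.64%). The median log2 fold change of MSC+RAW over MSC was 1.02 for the 15 members with the motif of nuclear respiratory factor 1 and 0.88 for the 49 tested members without it. For the ETS-type motif it was 0.85 with and 0.93 without, and for the YY1-type motif 0.90 in both.

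A smaller set of members ran against this direction. Atp5j, coupling factor 6 of the peripheral stalk of ATP synthase, had 29.1 and 30.3 CPM in MSC+RAW against 86.9 and 103 CPM in MSC, a log2 fold change of -1.65. Atp5h and Atp5o, which sit in the same stalk, had 993 and 963 CPM against 316 and 326 CPM (1.64) and 698 and 706 CPM against 183 and 223 CPM (1.82). Subunits of 1 stalk were thus found at both ends of the range. The same held for the small subunits of complex III, where Uqcrb was at 78 and 81.4 CPM against 136 and 182 CPM (-0.97) beside the higher Uqcr10 and Uqcrq, and for complex IV, where Cox5a was at 10 and 10.8 CPM against 21.8 and 17.8 CPM (-0.91). The other members below all 4 other libraries were Ndufb6, Ndufc2, Ndufs1, Uqcrc2, Ndufa4, Atp5a1, Atp5f1 and Atp5g3.

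The c-ring of ATP synthase, the rotor driven by protons, showed this split within 1 protein. Its subunit c is made from Atp5g1, Atp5g2 and Atp5g3, whose last codons give the same mature protein. The coding sequence of that shared end is shown because all 3 genes code for the same protein there (GENCODE vM21, GRCm38, 234 bases each, capitals marking the 63 positions at which the genes are not all alike).
Atp5g1: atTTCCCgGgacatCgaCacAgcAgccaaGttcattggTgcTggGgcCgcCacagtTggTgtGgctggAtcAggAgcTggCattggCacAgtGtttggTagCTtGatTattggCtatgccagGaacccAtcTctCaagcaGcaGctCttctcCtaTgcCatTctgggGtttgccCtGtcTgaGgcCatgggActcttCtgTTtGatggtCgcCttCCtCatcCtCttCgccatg
Atp5g2: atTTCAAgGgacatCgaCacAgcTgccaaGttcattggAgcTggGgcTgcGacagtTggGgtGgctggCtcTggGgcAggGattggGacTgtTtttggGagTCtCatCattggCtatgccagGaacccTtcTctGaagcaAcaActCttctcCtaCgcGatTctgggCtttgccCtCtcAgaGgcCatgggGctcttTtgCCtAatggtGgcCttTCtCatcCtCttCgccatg
Atp5g3: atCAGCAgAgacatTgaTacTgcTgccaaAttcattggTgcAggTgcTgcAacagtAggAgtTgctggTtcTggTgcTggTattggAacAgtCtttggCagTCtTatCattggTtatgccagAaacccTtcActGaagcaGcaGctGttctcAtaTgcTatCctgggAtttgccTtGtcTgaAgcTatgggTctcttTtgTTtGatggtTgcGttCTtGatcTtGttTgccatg
Over these bases Atp5g1 and Atp5g2 were 84.6% identical, Atp5g1 and Atp5g3 78.6%, and Atp5g2 and Atp5g3 77.4%, with no shared run above 20 bases. Atp5g1 (chr11:96068852-96075670, minus strand) had 301 and 296 CPM in MSC+RAW, 104 and 93.2 CPM in MSC, and 81.4 and 134 CPM in MSC+RAW-LPS. Atp5g3 (chr2:73908447-73911326, minus strand) had 60.1 and 58.1 CPM, 123 and 139 CPM, and 114 and 128 CPM in the same order. Atp5g1 was therefore highest and Atp5g3 lowest in MSC+RAW, with log2 fold changes over MSC of 1.63 and -1.12. Atp5g2 (chr15:102662864-102672352, minus strand) had 136 and 125 CPM in MSC+RAW, 92.5 and 61 CPM in MSC, and 71.3 and 89 CPM in MSC+RAW-LPS (0.80). In BMMs, Atp5g2 reached 164 CPM in sham 1 but only 28.1 and 25.5 CPM in sham 2 and 3, beside 134, 112 and 68.5 CPM in OVX (0.13 ± 0.62, edgeR adjusted p = 0.913). Atp5g1 has an annotated pseudogene (Gm10039) of 99.8% identity over 411 bases that held 9.62% as many counts, and how many reads were lost or split between the copies was not measured.

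The difference between the members followed base composition in the way that all genes did. Across genes, which are not independent replicates, the Spearman correlation of the log2 fold change of MSC+RAW over MSC with GC content was 0.44 for the 79 members and 0.40 for all genes. The 39 members richer in GC (51.7% to 63.3%) had a median of 1.14, with 24 of them at least 2-fold higher, and the 40 poorer in GC (38.4% to 51.6%) a median of 0.33, with 11. Of all genes on the same sides of the members' median GC content, 21.9% and 8.87% were at least 2-fold higher, with medians of 0.37 and -0.43. In BMMs the correlation of OVX over sham with GC content was -0.51 for the members and -0.56 for all genes, with medians of -0.50 and -0.23 in the richer and the poorer members. After the trends along GC content and length were removed, the members' median was 0.65 for MSC+RAW over MSC, with 23 members at least 2-fold higher beside 11.9% of all genes, and -0.23 for OVX over sham, where 1 member passed the test, lower in OVX, beside 3.98% of all genes lower.

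**Figure D3:**
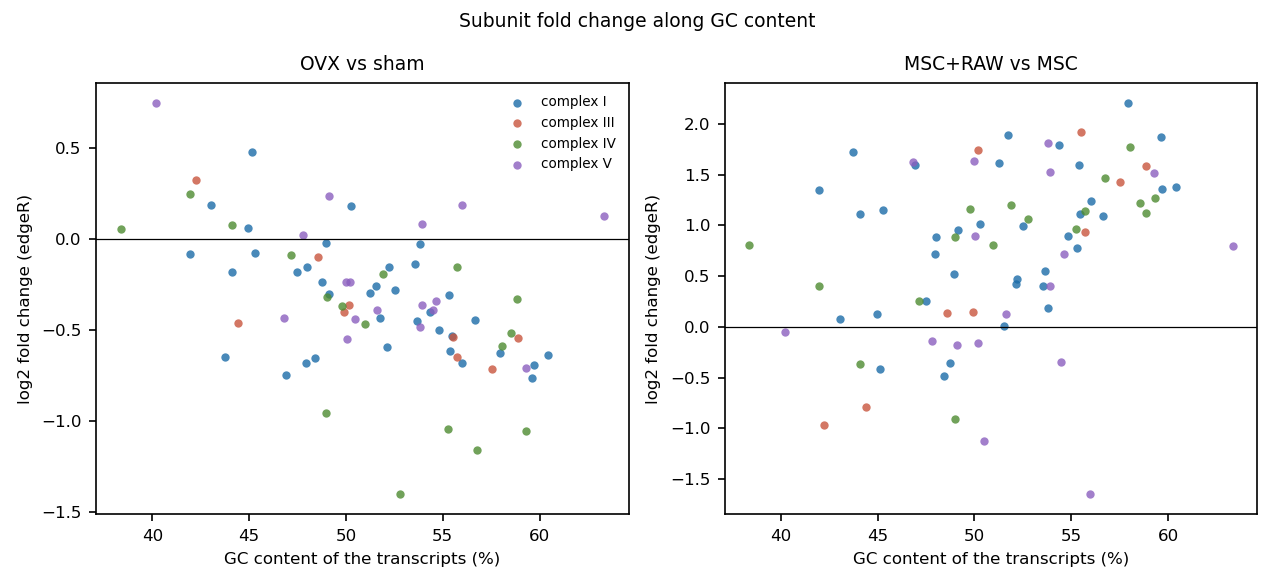
Log2 fold change of each tested member against the GC content of its transcribed bases (percent), for OVX against sham and for MSC+RAW against MSC. Members richer in GC lie lower in the first comparison (Spearman -0.51) and higher in the second (0.44), near the values of -0.56 and 0.40 over all genes.

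MSC+RAW-LPS was then set against MSC and against MSC+RAW. It differs from MSC by both the coculture and LPS, so that comparison does not read LPS alone. Below, "with LPS" means in the MSC+RAW-LPS libraries and names no cause. These comparisons share the MSC+RAW-LPS libraries, so their values are given side by side only. Against MSC, 2 members rose (2.53%, beside 11.1% of all genes) and 9 fell (11.4%, beside 9.85%) by edgeR at an adjusted p of 0.05, with a median of -0.12 against -0.01 over all genes. Both risen members also passed a fold of 2 and no fallen member did, beside 5.85% and 5.09% of all genes. MSC+RAW-LPS libraries lay above both MSC libraries for 10 members (12.7%) and below them for 26 (32.9%), beside 28.7% and 28.9% of all genes. Against MSC+RAW, with no test, 37 members (46.8%) were at least 2-fold lower and 4 (5.06%) at least 2-fold higher, beside 19.4% and 28.2% of all genes, and the medians were -0.92 and 0.14. The members' medians against MSC+RAW were -1.15 in complex I, -0.76 in complex III, -0.79 in complex IV and -0.74 in ATP synthase.

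The members that rose against MSC were Ndufa4l2 and Cox4i2, both of complex IV. Ndufa4l2 (chr10:127514967-127517154, plus strand) had 0.388 and 0.293 CPM in MSC, from 19 and 10 counts, then 0.636 and 1.04 CPM in MSC+RAW and 7.41 and 8.64 CPM in MSC+RAW-LPS. The LPS libraries lay above all others (4.53 ± 0.39 over MSC, edgeR adjusted p = 3.6e-07, and 3.26 over MSC+RAW). Ndufa4 (chr6:11900292-11907497, minus strand) stayed within a narrow range of 76.5 to 118 CPM in the 6 libraries (0.03 ± 0.16 over MSC, edgeR adjusted p = 0.945). Even after its rise, Ndufa4l2 was at 8.03 ± 0.87 CPM where Ndufa4 was at 105 ± 19.4 CPM (n = 2 each), and over the MSC experiment their levels per length were 2.8 and 68.8 RPKM.

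The coding sequences of this pair are shown because one changed and the other did not pass the test (GENCODE vM21, GRCm38, 249 and 264 bases, capitals marking bases that differ from the paralog or have no partner in it).
Ndufa4: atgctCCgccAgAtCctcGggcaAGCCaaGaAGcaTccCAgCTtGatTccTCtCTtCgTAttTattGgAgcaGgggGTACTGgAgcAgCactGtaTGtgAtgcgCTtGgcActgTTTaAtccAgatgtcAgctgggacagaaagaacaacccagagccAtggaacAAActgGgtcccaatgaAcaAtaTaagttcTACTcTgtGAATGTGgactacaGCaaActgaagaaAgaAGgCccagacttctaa
Ndufa4l2: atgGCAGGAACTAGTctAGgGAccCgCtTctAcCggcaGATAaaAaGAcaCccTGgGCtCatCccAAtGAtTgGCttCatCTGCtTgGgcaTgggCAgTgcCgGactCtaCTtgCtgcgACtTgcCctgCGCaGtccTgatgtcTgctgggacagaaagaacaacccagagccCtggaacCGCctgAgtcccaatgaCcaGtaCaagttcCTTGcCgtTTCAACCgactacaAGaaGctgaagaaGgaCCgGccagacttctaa
Of 245 aligned bases 168 were identical (68.6%), and the longest shared run was 28 bases. That run is the unbroken lower-case stretch in the middle of both sequences.

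Cox4i2 had 1.29 and 1.03 CPM in MSC, 3.4 and 2.88 CPM in MSC+RAW and 3.42 and 4.66 CPM in MSC+RAW-LPS. It thus lay above MSC in both cocultures (1.79 ± 0.37 for LPS over MSC, edgeR adjusted p = 0.00225, and 1.47 for MSC+RAW over MSC), while the cocultures differed by 0.32. Cox4i1 had 279 and 474 CPM with LPS, around the MSC values and far below MSC+RAW (0.30 ± 0.20 over MSC, edgeR adjusted p = 0.363, and -1.48 over MSC+RAW). Coding sequences of Cox4i1 and Cox4i2 were 69.8% identical, with no shared run above 14 bases. Both rises, of Ndufa4l2 and of Cox4i2, passed the threshold in each of 15 other fits, with log2 fold changes of 4.36 to 4.76 and 1.56 to 1.97. Neutrophil markers summed to 370 and 557 CPM with LPS against 11.7 and 16.3 CPM in MSC, nearly all of it S100a8 (341 and 517 CPM) and Camp (28.7 and 39.7 CPM), while the defining markers S100a9, Ly6g and Mpo were at 0 to 0.06 CPM with LPS and only 3 of the 6 could be tested. Osteoclast markers summed to 826 and 891 CPM with LPS against 111 and 107 CPM in MSC, with 2 of 6 risen (Mmp9 by 4.24 and Acp5 by 2.25 on the log2 scale) and 1 fallen (Atp6v0d2). Mesenchymal markers summed to 3945 and 4030 CPM with LPS against 2845 and 3005 CPM in MSC. Of these 10, 4 rose (Nt5e, Col3a1, Col1a1 and Eng) and 1 fell (Cxcl12). The part of all these markers in both rises, of Ndufa4l2 and of Cox4i2, was not tested.

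**Figure D4:**
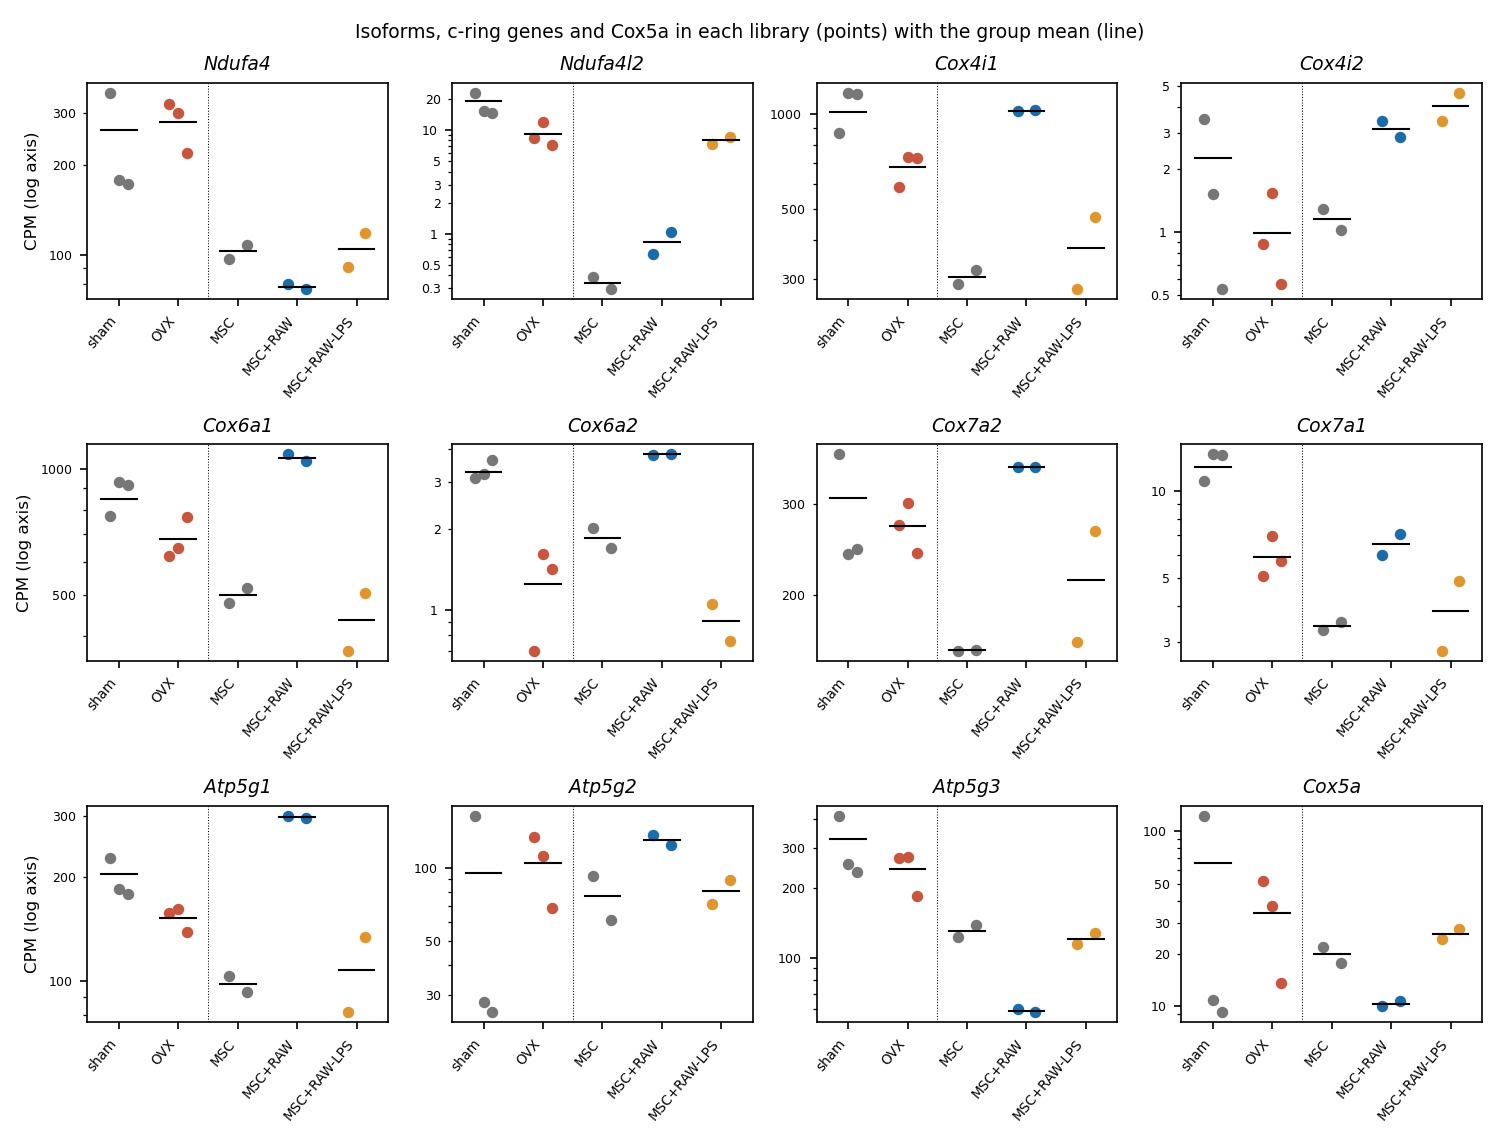
CPM on a log axis in every library (points) with the group mean (line) for 4 isoform pairs of complex IV, the c-ring genes and Cox5a, with BMM groups left and MSC groups right of the dotted line. Ndufa4l2 lies at 0.293 to 1.04 CPM in MSC and MSC+RAW and at 7.41 and 8.64 CPM in MSC+RAW-LPS, and Atp5g1 and Atp5g3 lie at opposite ends in MSC+RAW.

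No muscle or testis isoform passed the test with LPS against MSC. Cox6a2 had 2.02 and 1.7 CPM in MSC, 3.81 and 3.82 CPM in MSC+RAW and 1.05 and 0.765 CPM in MSC+RAW-LPS, lowest with LPS but not past the threshold against MSC (-1.04 ± 0.42, edgeR adjusted p = 0.103). Cox6b2 followed the same order, at 3.31 and 3.81, 8.02 and 7.36, and 1.71 and 2.1 CPM (-0.90 ± 0.32, edgeR adjusted p = 0.0548). Cox7a1 had 3.29 and 3.52, 5.99 and 7.1, and 2.79 and 4.88 CPM, so its MSC and LPS libraries overlapped (0.17 ± 0.32, edgeR adjusted p = 0.791). Their common partners Cox6a1, Cox6b1 and Cox7a2 had 437 ± 96.9, 260 ± 11.3 and 214 ± 73 CPM with LPS against 500 ± 29.1, 245 ± 6.37 and 156 ± 0.541 CPM in MSC, and none passed the threshold (edgeR adjusted p = 0.49, 0.776 and 0.121). In MSC+RAW the same 3 genes were higher, by 1.12, 0.81 and 1.21 on the log2 scale over MSC.

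Of the remaining complex IV members, Cox7b fell with LPS, from 313 and 336 CPM in MSC to 217 and 250 CPM (-0.48 ± 0.15, edgeR adjusted p = 0.0341). Cox5a had 24.4 and 27.7 CPM with LPS against 21.8 and 17.8 CPM in MSC, above it without passing (0.39, edgeR adjusted p = 0.159), and was 1.30 higher on the log2 scale than in MSC+RAW. Cox5b (120 and 166 against 133 and 156 CPM) and Cox8a (222 and 316 against 252 and 209 CPM) overlapped. Cox7a2l had 128 and 144 against 168 and 172 CPM, lower without overlap (edgeR adjusted p = 0.149).

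Complex I held 4 of the 9 members that fell against MSC, namely Ndufa12, Ndufs8, Ndufa5 and Ndufa13. Ndufa12, an accessory subunit of the matrix arm, had 105 and 105 CPM in MSC, 110 and 95.6 CPM in MSC+RAW and 62.1 and 45.6 CPM with LPS. It was the member with the smallest adjusted p among those that fell (-0.97 ± 0.17, edgeR adjusted p = 0.000547), and an annotated pseudogene, Gm15920, held 13.7% as many counts, so part of its reads may be split. Ndufs8, which carries iron-sulphur clusters in the core of complex I, had 108 and 110, 203 and 196, and 53.1 and 73.3 CPM in the same order (-0.79 ± 0.17, edgeR adjusted p = 0.00279). Ndufa5 fell from 78.1 and 83.3 to 41 and 55.4 CPM (-0.75, edgeR adjusted p = 0.00423). Ndufa13, also known as Grim19, fell from 195 and 176 to 116 and 149 CPM (-0.49, edgeR adjusted p = 0.0438). Ndufa12, Ndufs8 and Ndufa5 passed in all 15 other fits and Ndufa13 in 11. Ndufa5 and Ndufa13 are described because they passed the test. Ndufs1 (47.1 ± 0.38 against 53.7 ± 1.62 CPM) and Ndufv1 (47.8 ± 8.86 against 48.4 ± 1.44 CPM) did not pass, with edgeR adjusted p = 0.437 and 0.96. Ndufa11 and Ndufs7, high in MSC+RAW, were at 42 and 69.7 CPM and at 44.1 and 82 CPM with LPS.

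In complex III, Uqcrb fell from 136 and 182 CPM in MSC to 105 and 103 CPM with LPS (-0.61 ± 0.16, edgeR adjusted p = 0.0136). It was lower still in MSC+RAW, as given above. Uqcrh, the hinge protein, fell from 319 and 347 to 204 and 250 CPM (-0.56 ± 0.16, edgeR adjusted p = 0.018). Uqcrh and Atp5c1 below are described because they passed the test. Cyc1 (69.4 and 108 against 74.8 and 81.3 CPM), Uqcrfs1 (64.6 and 87.8 against 55.3 and 68.6 CPM) and Uqcr10 (71 and 130 against 95.6 and 99.1 CPM) overlapped and did not pass (edgeR adjusted p = 0.58, 0.283 and 0.923). In ATP synthase, Atp5mpl, a small membrane subunit, fell from 213 and 292 to 143 and 144 CPM (-0.81 ± 0.17, edgeR adjusted p = 0.00223), and Atp5c1, the gamma subunit of the central stalk, fell from 247 and 205 to 141 and 172 CPM (-0.53 ± 0.16, edgeR adjusted p = 0.0271). Atp5a1 (398 ± 41.9 against 427 ± 20.1 CPM) and Atp5b (791 ± 119 against 805 ± 29.2 CPM) did not pass. Atp5d had 139 and 239 CPM with LPS against 144 and 143 CPM in MSC, with overlap (0.39, edgeR adjusted p = 0.204).

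The MSC+RAW-LPS libraries differed between themselves in these genes. Library 1, the first of their columns, was lower than library 2 for 72 of 79 members, by a median of -0.42 on the log2 scale against 0.01 over all genes. Without library 1, 16 members were higher and 8 lower than in MSC (edgeR at an adjusted p of 0.05), beside 12.4% and 12.9% of all genes. Without library 2, 2 were higher and 36 lower, beside 11.2% and 10.9%. In both fits only the MSC libraries gave a spread, and the lone library was assumed to vary like them. The members' median was 0.054 without library 1 and -0.34 without library 2, so its sign rested on library 1.

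Against MSC+RAW, the members at least 2-fold higher with LPS were Ndufa4l2, Atp5j (65.9 and 86 against 29.1 and 30.3 CPM, 1.33), Cox5a and Atp5g3 (1.00). The lowest were Atp5o (109 and 210 against 698 and 706 CPM, -2.17), Ndufs7 (-2.14) and Atp5h (209 and 292 against 993 and 963 CPM) among members of at least 5 CPM, with Cox6a2 (-2.10) and Cox6b2 (-2.05) among the weakly expressed.

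Other genes of the pathway were counted from lists. In OVX against sham, all 13 mRNAs of mitochondrial DNA had positive log2 fold changes (median 1.01) and 3 rose, mt-Nd5, mt-Cytb and mt-Atp6, beside 7.26% of all genes, which is the direction opposite to the nuclear members. Their summed levels were 7387, 5500 and 4817 CPM in OVX and 4517, 2267 and 2245 CPM in sham. In MSC+RAW they summed to 1387 and 1324 CPM, against 2841 and 4165 CPM in MSC and 4048 and 4203 CPM with LPS, and 9 of 13 were at least 2-fold lower than in MSC, beside 24.0% of all genes. With LPS over MSC, mt-Cytb rose (0.90, edgeR adjusted p = 0.0243) and mt-Co3 fell (-0.67, edgeR adjusted p = 0.0451), beside 11.1% and 9.85% of all genes. These libraries were prepared by poly(A) selection, which bears on mitochondrial mRNAs, and the part of that step was not tested.

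Complex II, which feeds electrons to the chain without pumping protons, had 1 of 4 genes changed in OVX and none against MSC with LPS. That gene, Sdhb, fell (-0.75 ± 0.19, edgeR adjusted p = 0.035), beside 5.83% of all genes. Cycs, the soluble cytochrome c, rose from 102 and 94.8 CPM in MSC to 160 and 178 CPM with LPS (0.78 ± 0.15, edgeR adjusted p = 0.00122). In MSC+RAW it lay between them, at 123 and 124 CPM (0.35 over MSC). Of 42 assembly factors, 2 of 38 tested fell in OVX (Ndufaf3 and Ndufaf8), beside 5.83% of all genes, and none rose, with a median of -0.17. Against MSC, 5 of 39 fell with LPS (Ndufaf5, Ndufaf7, Tmem126b, Nubpl and Tmem70), beside 9.85% of all genes, and 2 rose (Cox17 and Cox18), beside 11.1%. The lowest was Nubpl, which brings iron-sulphur clusters to complex I (-1.31 ± 0.30, edgeR adjusted p = 0.00505). It was as low in MSC+RAW (2.27 and 2.36 CPM, against 2.46 and 2.58 CPM with LPS). Set against MSC+RAW, log2 fold changes of the 5 with LPS were 0.09 (Nubpl), -0.0055 (Tmem126b), -0.13 (Ndufaf5), -0.40 (Tmem70) and -1.11 (Ndufaf7). In MSC+RAW over MSC, 9 of 39 tested assembly factors were at least 2-fold higher and 5 at least 2-fold lower, beside 13.7% and 24.0% of all genes, with a median of 0.48. Of 11 tested regulators, Gabpa, an ETS factor that acts on many subunit genes, rose in OVX (1.20 ± 0.24, edgeR adjusted p = 0.0172) and with LPS (0.55 ± 0.17, edgeR adjusted p = 0.0309). Ppargc1b, a coactivator of mitochondrial biogenesis, fell in both (-1.42 ± 0.36 and -1.27 ± 0.35, edgeR adjusted p = 0.0393 and 0.0166), and no other regulator passed. Of all genes, 7.26% rose and 5.83% fell in OVX, and 11.1% rose and 9.85% fell against MSC with LPS.

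Many members have near-identical copies in the genome, which limits how reads could be assigned. For 25 of 79 tested members an annotated pseudogene or another member matched at 95% identity or more over at least 150 bases. The largest shares of counts on a copy were 29.3% of the member's own for Atp5l (Gm10221) and 27.8% for Ndufab1 (Gm4459). The median of OVX over sham was -0.24 for these 25 members and -0.44 for the 54 without a copy, and for MSC+RAW over MSC it was 0.80 and 0.95. For MSC+RAW-LPS over MSC it was -0.32 for members with a copy (19 of 25 negative) and -0.02 for those without (28 of 54). Members with a copy thus had the lower median in both comparisons with MSC and the higher one in OVX over sham.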

How the data were processed

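RNA was measured in 12 libraries of mouse cells, 6 from bone marrow-derived macrophages (BMMs) and 6 from cultures labelled as mesenchymal stem cells, after poly(A) selection. The authors deposited raw counts per gene, 1 table per experiment. According to the submitters' processing notes, GRCm38, Trim Galore 0.6.7, HISAT2 2.1.0 and featureCounts 2.0.1 were used. The strand setting of the counting is not given in the sources used here. Gene names were taken from GENCODE vM21.

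Near-identical libraries were summed and entered as 1 sample. Counts were tested in edgeR 4.0.16 (glmQLFit and glmQLFTest, TMM, filterByExpr, two-sided, R 4.3.3) with group as the only term, 1 fit per experiment, and p-values were adjusted over all genes tested (Benjamini-Hochberg, limit 0.05). The limit for a fold was 2. CPM used TMM library sizes, and ± with a log2 fold change is its standard error. On simulated counts for the real genes, with 200 genes changed 4-fold, edgeR recovered 199 in the BMM design (9 false calls among 16532 genes) and 197 in the MSC design (3 among 18759). Every gene was given the same spread between samples there (dispersion 0.05), without a library as far off as sham 1. Smaller changes, such as those of most members, were not simulated, so the recovery says nothing about them. DESeq2 1.42.0, RLE scaling, other filters, trends along GC content and length, libraries left out, a replicate block and a header tag as a term were alternatives.

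Members and lists were chosen with earlier results of these data known. Members given library by library were those past both limits, the 3 highest and 3 lowest of each comparison among members of at least 5 CPM on average, the isoforms with their partners, the c-ring genes and core subunits of each complex. All others appear as counts or are named with a reason. These reasons were passing the test, lying lowest in MSC+RAW, or having a near-identical copy. Uqcrq was named after its values were seen. Protein sequences were not used here, and 1 item that this rule names is not reported here.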

Additional observations from a re-analysis of the deposited data

Results flagged for a closer look

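The symbol prefixes also match 13 genes that are not annotated as protein coding, of which 9 exceeded 1 CPM in at least 1 library. Flagged were 3 of them, because every library of a coculture lay above both MSC libraries. Of all genes tested, 28.7% lay above both in MSC+RAW-LPS, so such an order is common. Ndufb1-ps, annotated as a bidirectional promoter lncRNA, averaged 113.7 CPM in MSC+RAW and 122.6 CPM in MSC+RAW-LPS, against 80 and 99.1 CPM in the MSC libraries. It was also at 236 to 328 CPM in OVX and at 233 to 449 CPM in sham. Cox6c2, a processed pseudogene that is 97% identical to Cox6c over 231 bases, averaged 18.16 CPM in MSC+RAW, against 11.4 and 6.83 CPM in MSC. Ndufab1-ps, which is 99.7% identical to Ndufab1 over 469 bases, averaged 1.608 CPM in MSC+RAW. Its libraries there, at 1.49 and 1.73 CPM, lay barely above those of MSC (0.919 and 1.47 CPM). No test was made of these differences, and how reads were split between these genes and their coding copies was not tested.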

How the results depend on the processing

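The members' median kept its sign in all alternatives run for OVX over sham, for MSC+RAW over MSC and for MSC+RAW-LPS over MSC+RAW, while counts of members past the threshold were unstable. In OVX over sham (0 higher, 4 lower), 20 members were lower with all libraries as deposited (beside 12.5% of all genes), 12 with DESeq2 (9.35%), 15 with no filter (5.34%), 1 with the GC content and length trends removed (3.98%, median -0.23) and 0 with only BMM replicates 1 and 3 (0.565%), an alternative chosen after seeing the data. With 1 library left out, 0 to 19 were lower and 0 to 9 higher, the most without sham 1 (beside 8.74% and 10.3% of all genes). With the replicate block, 6 were higher and 38 lower, beside 20.4% and 19.7%. Whether equal numbers pair the libraries could not be decided. Same-numbered OVX and sham libraries correlated at 0.545, -0.063 and 0.565 in their deviations, and only OVX 1 and OVX 3 correlated best with their own number. Sham 2 and 3 are near-identical, so this cannot tell them apart (OVX 3 correlated at 0.551 with sham 2). In the column headers, the codes of OVX 2 and sham 2 run together and apart from the others, and their meaning is not given. In the MSC experiment the column headers share at most 1 number between groups, but 1 column of each group carries a common tag. For MSC+RAW-LPS over MSC (2 higher, 9 lower), 4 were higher and 15 lower with no filter (beside 8.12% and 7.56% of all genes) and 4 higher with the trends removed (11.5%). With that tag as a term, chosen after seeing the data, and all libraries as deposited, 3 were higher and 17 lower, beside 14.7% and 13.7%. Leaving out 1 library gave 2 to 16 higher and 3 to 36 lower, beside 7.19% to 12.4% and 6.46% to 12.9% of all genes, with medians of -0.34 to 0.054, the positive one without MSC+RAW-LPS 1, and the median was -0.35 within the tagged columns and 0.056 within the others. For MSC+RAW-LPS over MSC+RAW the median was -0.69 with the trends removed, -1.14 within the tagged columns and -1.21 to -0.76 with 1 library left out. For MSC+RAW over MSC it was 0.65 with the trends removed. The cause of these shifts was not tested. Of the log2 fold changes of the 41 members chosen by the naming rule, over all comparisons and settings, 2030 kept their call and direction or moved within the spread, 82 gained a call, 22 lost it and 146 moved further. With n = 2 or 1 in most groups, low-expressed isoforms such as Cox4i2 and Cox6a2 rest on few counts.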
